A study of Mus musculus with 8 samples.

Results

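The genes described here encode the enzymes, the chaperone and the proteases that turn a collagen chain into mature procollagen and then collagen. They are the lysyl hydroxylase genes Plod1, Plod2 and Plod3, the prolyl 4-hydroxylase subunit genes P4ha1, P4ha2 and P4ha3, the collagen chaperone gene Serpinh1, and the extracellular processing genes Adamts2, Bmp1 and Pcolce. They were taken by gene symbol from a deposited table of 24612 genes, and all 10 were found. The RNA came from skin of male C57BL/6J mice whose treatment began at 6 weeks and ran for 21 days. Controls (2 libraries) had phosphate-buffered saline (PBS, 0.1 mL) injected under the skin. Bleomycin mice (3 libraries) received 0.1 units of bleomycin by the same route; this drug breaks DNA and is given to mice to model skin fibrosis. Celastrol mice (3 libraries) had daily intraperitoneal injections, at 1 or 2 mg/kg, of celastrol, a triterpenoid from plants. Dose per celastrol mouse is not stated, and neither is any bleomycin treatment of those mice. All mice were of a single strain with no engineered allele named. Nothing in the labels says whether a library is a single mouse, so the p-values measure the spread between these libraries, which may be partly technical.

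Procollagen chains are modified as they enter the endoplasmic reticulum. Prolyl 4-hydroxylases, tetramers of an alpha subunit (the P4ha genes) and the disulphide isomerase encoded by P4hb, hydroxylate prolines and so make the triple helix stable at body temperature. Lysyl hydroxylases act on lysines that later carry sugars or crosslinks: Plod1 acts mainly on lysines of the helix, Plod2 on lysines of the telopeptides, and Plod3 also has glycosyltransferase activity. The product of Serpinh1, HSP47, binds the folded helix and escorts it towards the Golgi. Outside the cell ADAMTS2 removes the amino-terminal propeptide, BMP1 removes the carboxy-terminal propeptide, and PCOLCE, which has no protease activity, enhances cleavage by BMP1. Dermal fibroblasts are the main source of this machinery in skin.

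Values are the authors' normalized values on a linear scale, and changes are fitted log2 differences of the value plus 1, with the standard error (SE) of the fit over all libraries. A gene is said to have risen or fallen where its p, adjusted over the 23185 genes tested, was under 0.05. The values summed to between 22917554 and 26381997 per library, and the estimated depth lay between 14900000 and 37100000 reads. Celastrol 2 stood apart on the first principal component (32.7% of the variance), at a score of 237.5 where the other libraries lay between -57.31 and -3.63, and celastrol calls are given with and without it. The 10 epidermal markers, which check the labelled tissue, took between 1.14% and 2.34% of all values and none was at 0 in any library.

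The data show lower levels of the chaperone, of the extracellular processing genes and of Plod1 outside PBS skin, and a higher level of Plod2. P4ha2 was lower in every bleomycin library than in either PBS library, and the level of P4ha1 hardly moved. In bleomycin against PBS 0 of the 10 genes passed (limma), where 0.677% of all genes tested passed, 0.453% higher and 0.224% lower. At an unadjusted p under 0.05 there were 7 of 10, 1 higher and 6 lower, where 6.82% of all genes tested were so, 3.62% higher and 3.20% lower. In celastrol against PBS 1 of 10 passed, Adamts2, which fell, where 1.37% of all genes passed, 0.824% higher and 0.543% lower. At an unadjusted p under 0.05 there were 1 higher and 5 lower, where 12.0% of all genes were so, 6.13% higher and 5.91% lower. In celastrol against bleomycin 0 of 10 passed and 0 had an unadjusted p under 0.05, where 0% of all genes passed and 3.87% had an unadjusted p under 0.05, 1.38% higher and 2.49% lower. The counts by library do not use the fit. Of the 10 genes, 6 were lower in every bleomycin library than in either PBS library and 1 was higher, where 11.6% of all genes tested were lower and 12.0% higher without overlap (23.6% in all). For celastrol and PBS the counts were 6 lower and 2 higher, where 13.7% and 13.2% of all genes were so (26.9% in all). Serpinh1, Pcolce, Adamts2, Bmp1 and Plod1 were lower in both counts, P4ha2 only for bleomycin and P4ha1 only for celastrol. The P4ha1 values were 1144 to 1259 in celastrol libraries, beside 1299 and 1367 in PBS. Plod2 was higher in both counts, and P4ha3 only for celastrol. For celastrol and bleomycin all 10 genes overlapped, where 8.73% of all genes did not overlap, 4.13% higher and 4.59% lower. The median log2 change of the 10 genes was -0.97 in bleomycin against PBS, -0.80 in celastrol against PBS and -0.13 in celastrol against bleomycin, beside medians over all genes tested of -0.00, -0.07 and -0.04. P4ha3 passed the filter on low values only through bleomycin and celastrol libraries, so the filter favoured its place among the genes higher than in PBS. The comparisons share libraries, so their values for a gene are set side by side and are not independent of each other.

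**Figure D1:**
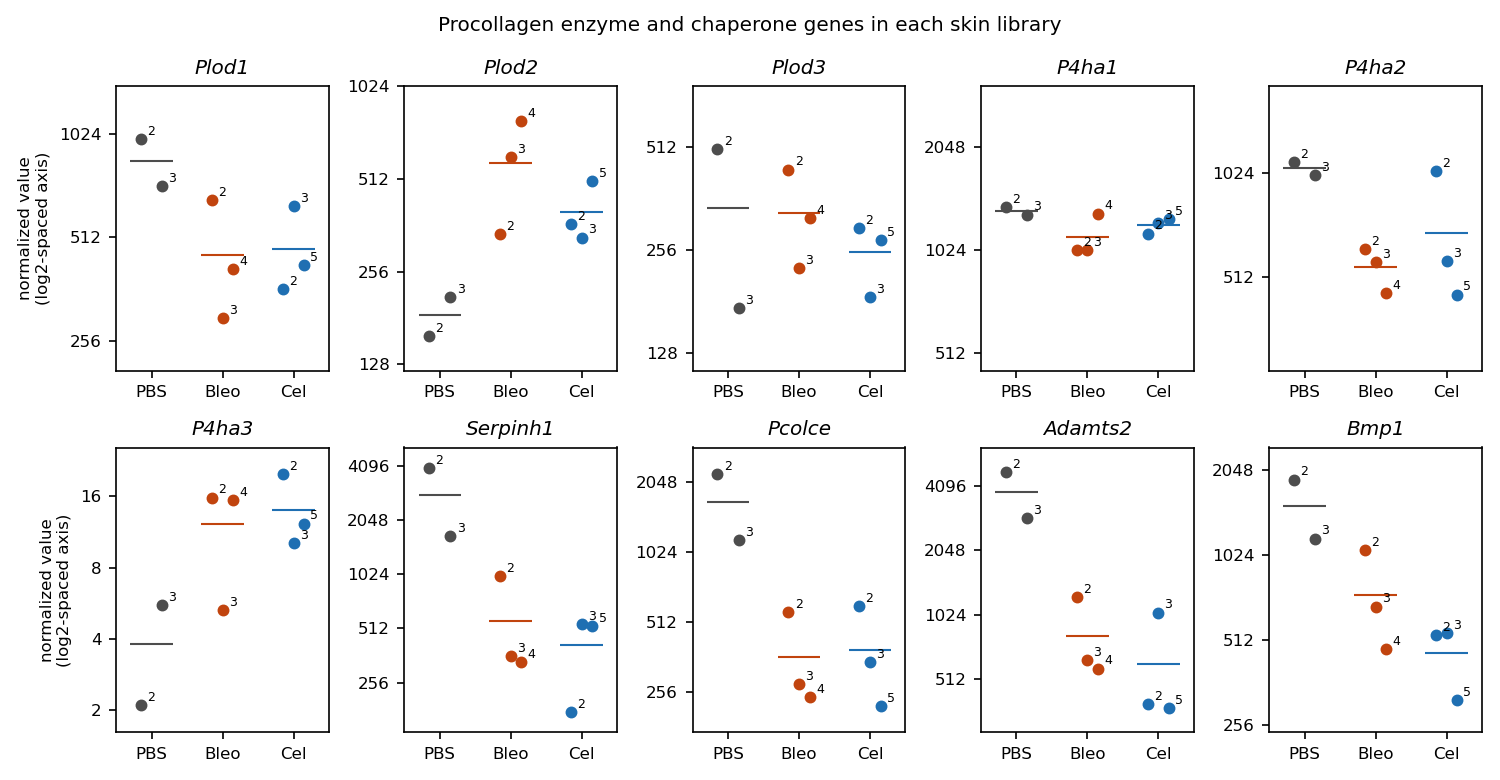
Normalized value of each gene (vertical axis, log2-spaced, a range of its own per panel) in each library, with the PBS, bleomycin (Bleo) and celastrol (Cel) libraries as points labelled by replicate number and the group mean as a line. Serpinh1, Pcolce, Adamts2, Bmp1 and Plod1 are lower in all 6 bleomycin and celastrol libraries than in both PBS libraries, Plod2 is higher in all 6, and P4ha1 stays between 1025 and 1367.

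Promoters of 4 of the genes are shown, the pair with the lowest changes and the prolyl hydroxylase subunits with substantial values (P4ha1 and P4ha2), so that the windows behind the motif counts can be read. RefSeq promoters (GRCm38.p6, 250 bases before to 50 bases after the start site, written 5′ to 3′ on the strand of the gene) were found for 8 of the 10 genes, not for Plod2 or Bmp1. The core of the hypoxia response element, ACGTG, and the heat shock element GAANNTTC were searched on both strands, and the capitals mark the matches. Adamts2 and Serpinh1 had the lowest fitted changes in both comparisons with PBS, and P4ha1 had the change nearest to 0 in celastrol against PBS.
Adamts2 (chr11:50601835-50602134, + strand): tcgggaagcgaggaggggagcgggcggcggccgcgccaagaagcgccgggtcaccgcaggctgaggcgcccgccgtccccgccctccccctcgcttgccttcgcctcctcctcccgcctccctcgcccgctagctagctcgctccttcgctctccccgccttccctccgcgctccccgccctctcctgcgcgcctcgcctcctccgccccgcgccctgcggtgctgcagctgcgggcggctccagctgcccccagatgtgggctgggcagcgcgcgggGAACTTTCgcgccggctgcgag
Serpinh1 (chr7:99353190-99353489, - strand): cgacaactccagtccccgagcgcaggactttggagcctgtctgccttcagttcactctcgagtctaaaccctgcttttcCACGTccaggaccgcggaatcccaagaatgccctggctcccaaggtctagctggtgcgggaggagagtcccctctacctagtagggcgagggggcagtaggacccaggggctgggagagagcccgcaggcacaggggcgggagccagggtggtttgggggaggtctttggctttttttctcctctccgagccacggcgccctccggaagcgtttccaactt
P4ha1 (chr10:59323046-59323345, + strand): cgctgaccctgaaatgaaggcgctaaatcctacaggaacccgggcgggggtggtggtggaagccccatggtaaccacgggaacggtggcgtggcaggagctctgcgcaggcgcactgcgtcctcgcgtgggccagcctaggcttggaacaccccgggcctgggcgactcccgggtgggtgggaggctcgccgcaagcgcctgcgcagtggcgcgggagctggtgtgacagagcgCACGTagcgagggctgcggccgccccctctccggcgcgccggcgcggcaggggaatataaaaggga
P4ha2 (chr11:54100674-54100973, + strand): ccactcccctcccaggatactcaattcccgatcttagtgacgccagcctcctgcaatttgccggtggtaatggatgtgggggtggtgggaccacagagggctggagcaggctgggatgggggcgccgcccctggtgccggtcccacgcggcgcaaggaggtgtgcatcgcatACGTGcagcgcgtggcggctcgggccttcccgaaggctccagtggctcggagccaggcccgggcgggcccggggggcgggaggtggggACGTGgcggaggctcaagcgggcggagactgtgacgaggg
ACGTG was present in 4 of the 8 promoters, those of Plod3, P4ha1, P4ha2 and Serpinh1, and in 19.6% of 32817 mouse promoters of the same length. It began 16 bases before the start site in P4ha1 and 171 bases before it in Serpinh1, on the opposite strand in both, and it occurred 78 bases before and 11 bases after the start site in P4ha2. GAANNTTC was present in 2 of the 8, those of Plod1 and Adamts2, and in 7.86% of all promoters, and no promoter of the 8 held both motifs. The promoters of P4ha3 and Pcolce held neither. Genes with ACGTG included one with a change near 0, P4ha1, and one with a change of -2.81 in celastrol against PBS, Serpinh1.

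Serpinh1 (ENSMUSG00000070436.12, chr7:99345376-99353239, - strand, mm10) encodes HSP47, a chaperone dedicated to collagen. Its values were 4001 and 1679 in PBS 2 and PBS 3. They were 1004, 358 and 334 in Bleomycin 2, 3 and 4, and 176, 543 and 529 in Celastrol 2, 3 and 5. Both PBS libraries lay above all the others, and they stood far apart from each other, as Bleomycin 2 did from the other bleomycin libraries. The mean was 2840 ± 1642 (SD, n = 2) in PBS, 565 ± 380 (n = 3) in bleomycin and 416 ± 208 (n = 3) in celastrol libraries. The log2 change was -2.39 ± 0.60 (SE) in bleomycin against PBS (adjusted p = 0.14, 95% interval -3.72 to -1.06) and -2.81 ± 0.60 in celastrol against PBS (adjusted p = 0.0534, interval -4.13 to -1.48), and neither passed. Celastrol against bleomycin stood at -0.42 (interval -1.60 to 0.77), and this direction turned to 0.12 without Celastrol 2 and to 0.09 without Bleomycin 2. Without Bleomycin 2 Serpinh1 fell in both comparisons with PBS (adjusted p = 0.0366 and 0.0207). Without Celastrol 2 the change in celastrol against PBS was -2.27 (adjusted p = 0.123).

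Adamts2 (ENSMUSG00000036545.8, chr11:50602084-50807573, + strand) encodes the procollagen N-proteinase. Its values were 4791 and 2916 in the PBS libraries. The bleomycin libraries were at 1238, 625 and 572, and the celastrol libraries at 389, 1047 and 373. Every library outside PBS was well under the lower PBS library. Adamts2 fell in celastrol against PBS, with a log2 change of -2.81 ± 0.47 (adjusted p = 0.0196, interval -3.85 to -1.76), from 3853 ± 1325 (n = 2) to 603 ± 384 (n = 3). That call was lost without Celastrol 2 (-2.58, adjusted p = 0.0713), without Celastrol 5 (-2.55, adjusted p = 0.0975), without PBS 2 (-2.45, adjusted p = 0.137), without PBS 3 (-3.16, adjusted p = 0.0779), without the mean-variance trend (adjusted p = 0.162) and when the shallow libraries (Bleomycin 3, Celastrol 2, Celastrol 3) were all left out (-3.32, adjusted p = 0.103). In bleomycin against PBS the change was -2.29 ± 0.47 and did not pass (adjusted p = 0.0646, interval -3.33 to -1.25), while it passed without Bleomycin 2 (-2.64, adjusted p = 0.0255), without Celastrol 3 (adjusted p = 0.0267), with a pseudocount of 5 (adjusted p = 0.048), with quantile normalization (adjusted p = 0.0419) and with library weights (adjusted p = 0.00346). Celastrol against bleomycin stood at -0.51 (interval -1.44 to 0.42), and Celastrol 3 lay within the range of the bleomycin libraries.

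Pcolce (ENSMUSG00000029718.14, chr5:137605103-137613784, - strand) encodes the enhancer of the C-proteinase. It was at 2209 and 1153 in the PBS libraries. The bleomycin libraries were at 563, 277 and 244, and the celastrol libraries at 599, 344 and 223. No library outside PBS came near the lower PBS value, and the celastrol and bleomycin ranges nearly coincided. The change was -2.24 ± 0.48 in bleomycin against PBS (adjusted p = 0.0756), -2.15 ± 0.48 in celastrol against PBS (adjusted p = 0.0624) and 0.09 ± 0.43 in celastrol against bleomycin (interval -0.86 to 1.04). Pcolce passed in both comparisons with PBS without Bleomycin 2 (adjusted p = 0.0265 and 0.029). Without Celastrol 2 the celastrol change was -2.52 (adjusted p = 0.0567). It shares 224 exonic bases with other annotated genes, of which Gm36266 on the opposite strand was at 97.2 or less in every library. Strand use in the authors' counting is not given in the sources used here, so a small part of the Pcolce value is uncertain.

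Bmp1 (ENSMUSG00000022098.10, chr14:70474558-70520234, - strand) encodes the procollagen C-proteinase. Its PBS values were 1894 and 1170, its bleomycin values 1067, 672 and 474, and its celastrol values 531, 540 and 312. Bleomycin 2 was close to PBS 3, and the celastrol libraries were further away. The change was -1.09 ± 0.38 in bleomycin against PBS (adjusted p = 0.433, interval -1.93 to -0.25) and -1.73 ± 0.38 in celastrol against PBS (adjusted p = 0.0582, interval -2.57 to -0.89). Celastrol against bleomycin stood at -0.64 ± 0.34 (interval -1.39 to 0.11). Without Bleomycin 2 Bmp1 fell in celastrol against PBS (adjusted p = 0.0268), and without Celastrol 2 the change was -1.86 (adjusted p = 0.105).

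The proportion of the enhancer to the protease differed between these libraries, but no test of it between groups passed. The Pcolce value was 1.17 and 0.99 times the Bmp1 value in the PBS libraries. In bleomycin libraries the ratio was 0.53, 0.41 and 0.51, and in celastrol libraries 1.13, 0.64 and 0.71. The 3 bleomycin libraries lay below all the others. The log2 difference was -1.15 between bleomycin and PBS and 0.73 between celastrol and bleomycin (two-sided exact permutation p = 0.1 for each, the smallest these groups allow, adjusted p = 0.3 over 12 tests of 4 ratios chosen after the values were seen).

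Plod2 (ENSMUSG00000032374.14, chr9:92542223-92608428, + strand), the telopeptide lysyl hydroxylase whose product favours the hydroxyallysine crosslinks of scar tissue, lay in the other direction. Its values were 159 and 212 in the PBS libraries. The bleomycin libraries were at 340, 603 and 790, and the celastrol libraries at 366, 331 and 503. All 6 lay above both PBS libraries, with Bleomycin 2 nearest to PBS among the bleomycin libraries and Bleomycin 4 farthest. The mean was 185 ± 37.7 (n = 2) in PBS, 578 ± 226 (n = 3) in bleomycin and 400 ± 91.1 (n = 3) in celastrol libraries. The log2 change was 1.57 ± 0.38 in bleomycin against PBS (adjusted p = 0.124, interval 0.72 to 2.41) and 1.10 ± 0.38 in celastrol against PBS (adjusted p = 0.259, interval 0.26 to 1.94), and neither passed. Plod2 rose in bleomycin against PBS without Bleomycin 2 (1.91, adjusted p = 0.0335). Celastrol against bleomycin stood at -0.47 ± 0.34 (interval -1.22 to 0.28). An antisense gene, Gm38391, shares 346 exonic bases with Plod2 and was at 0 to 70.9 in the libraries, with no group at a single level.

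Plod1 (ENSMUSG00000019055.15, chr4:147909753-147936767, - strand), the helical lysyl hydroxylase, lay on the opposite side. Its values were 992 and 722 in PBS, 656, 298 and 414 in bleomycin, and 363, 631 and 424 in celastrol libraries. All 6 lay below both PBS libraries, with Bleomycin 2 and Celastrol 3 close to the lower of them. The change was -0.97 ± 0.37 in bleomycin against PBS (adjusted p = 0.544, interval -1.77 to -0.16) and -0.88 ± 0.37 in celastrol against PBS (adjusted p = 0.364, interval -1.69 to -0.07), and it was 0.09 ± 0.33 in celastrol against bleomycin. The ratio of Plod2 to Plod1 was 0.16 and 0.29 in the PBS libraries, 0.518, 2.02 and 1.91 in the bleomycin libraries, and 1.01, 0.524 and 1.19 in the celastrol libraries. Both PBS ratios were the lowest of all. The log2 difference of the ratio was 2.54 between bleomycin and PBS (two-sided exact permutation p = 0.2, adjusted p = 0.343) and 1.98 between celastrol and PBS (exact permutation p = 0.1, adjusted p = 0.3).

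Plod3 (ENSMUSG00000004846.10, chr5:136987019-136996648, + strand), the lysyl hydroxylase with glycosyltransferase activity, gave no separation of the groups. PBS 2 was at 505 and PBS 3 at 173, which are the highest and the lowest values of all 8 libraries. The bleomycin values were 439, 227 and 318 and the celastrol values 296, 187 and 273. The change was 0.10 ± 0.47 in bleomycin against PBS (interval -0.95 to 1.15) and -0.26 ± 0.47 in celastrol against PBS (interval -1.31 to 0.79). Its direction depended on the PBS library kept, since bleomycin against PBS stood at -0.67 without PBS 3 and at 0.87 without PBS 2. Plod3 shares exons with Znhit1 on the opposite strand, which was at 30.9 to 138 and was higher in every bleomycin and celastrol library than in either PBS library.

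**Figure D2:**
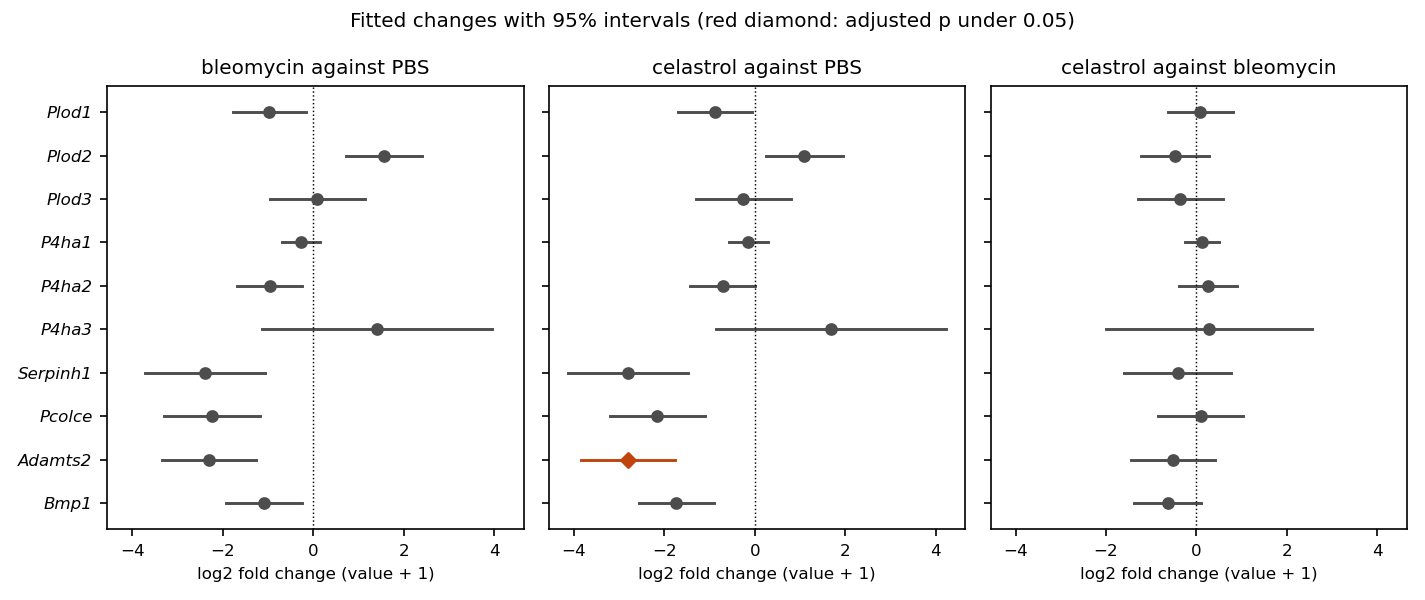
Fitted log2 fold change of each gene (points) with its 95% interval (bars) in the 3 comparisons, on a shared horizontal axis. The intervals of Serpinh1, Pcolce, Adamts2, Bmp1 and Plod1 lie below 0 and that of Plod2 above 0 in both comparisons with PBS, only Adamts2 in celastrol against PBS passed after adjustment over all genes (diamond), and every interval of celastrol against bleomycin includes 0.

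P4ha1 (ENSMUSG00000019916.14, chr10:59323296-59373304, + strand) encodes the most widely expressed alpha subunit of prolyl 4-hydroxylase. Its PBS values were 1367 and 1299, its bleomycin values 1025, 1025 and 1308, and its celastrol values 1144, 1225 and 1259. The standard deviation of its log2 values over the 8 libraries was 0.159, the lowest of the 10 genes, against 1.44 for Serpinh1. The change was -0.26 ± 0.19 in bleomycin against PBS (interval -0.69 to 0.16), -0.14 ± 0.19 in celastrol against PBS (interval -0.57 to 0.28) and 0.12 ± 0.17 in celastrol against bleomycin (interval -0.26 to 0.50). Its partner P4hb, the beta subunit, was at 5513 and 4496 in PBS, between 4358 and 4937 in bleomycin and between 4658 and 5845 in celastrol libraries, with changes of -0.12 and 0.11 against PBS.

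P4ha2 (ENSMUSG00000018906.14, chr11:54100095-54131665, + strand) encodes the other main alpha subunit. It was at 1103 and 1015 in PBS and at 617, 564 and 458 in bleomycin libraries. In celastrol libraries it was at 1038, 570 and 454, so that Celastrol 2 matched PBS and the other two matched bleomycin. The change was -0.96 ± 0.33 in bleomycin against PBS (adjusted p = 0.409, interval -1.69 to -0.24) and -0.71 ± 0.33 in celastrol against PBS (adjusted p = 0.427, interval -1.44 to 0.01). Without Celastrol 2 the latter stood at -1.06. The ratio of P4ha2 to P4ha1 was 0.81 and 0.78 in PBS, 0.60, 0.55 and 0.35 in bleomycin, and 0.91, 0.47 and 0.36 in celastrol libraries. The bleomycin ratios lay below both PBS ratios (log2 difference -0.70, two-sided exact permutation p = 0.2, adjusted p = 0.343), and the celastrol ratios overlapped both groups.

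P4ha3 (ENSMUSG00000051048.17, chr7:100285520-100319699, + strand), the remaining alpha subunit gene, was close to the limit of detection. Its values were 2.09 and 5.55 in PBS, 15.8, 5.29 and 15.5 in bleomycin, and 19.8, 10.2 and 12.3 in celastrol libraries, which corresponds to an estimated 3.01 to 23 reads per library. Celastrol libraries lay above PBS libraries, and Bleomycin 3 lay between the PBS libraries. The change was 1.42 ± 1.15 in bleomycin against PBS and 1.69 ± 1.15 in celastrol against PBS (adjusted p = 1 and 0.622), and at this depth the intervals (-1.12 to 3.96 and -0.85 to 4.24) allow a change in either direction.

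The order of the levels, read per kilobase of annotated exon because the transcripts differ in length, was not the same in PBS skin as in the other groups. In PBS skin Serpinh1 led at 1163 ± 672 per kilobase (n = 2), followed by Pcolce at 440 ± 195, Adamts2 at 413 ± 142 and P4ha1 at 324 ± 11.8. Bmp1 at 173 ± 57.8, P4ha2 at 170 ± 9.95 and Plod1 at 127 ± 28.2 came next, then Plod3 at 75.1 ± 51.9, Plod2 at 34.3 ± 6.99 and P4ha3 at 1.22 ± 0.78. Neighbours in this order overlapped within 1 SD of each mean, except P4ha1 and Bmp1, P4ha2 and Plod1, and Plod2 and P4ha3. In bleomycin skin P4ha1 led at 272 ± 39.8 per kilobase (n = 3), with Serpinh1 at 231 ± 156, which overlapped within 1 SD, followed by Plod2 at 107 ± 41.9. In Bleomycin 2 Serpinh1, at 411 per kilobase, was above P4ha1, and without that library the Serpinh1 mean was 142. Pcolce at 94.5 ± 45.9, P4ha2 at 87.6 ± 13.0, Adamts2 at 87.0 ± 39.7, Bmp1 at 83.2 ± 34.0, Plod3 at 72.6 ± 23.5 and Plod1 at 67.4 ± 27.0 overlapped with Plod2 and with each other within 1 SD, and P4ha3 at 3.89 ± 1.91 was last. In celastrol skin P4ha1 again led, at 294 ± 14.3 per kilobase (n = 3), ahead of Serpinh1 at 170 ± 85.2 and P4ha2 at 110 ± 49.5. Pcolce stood at 102 ± 50.3, Plod2 at 74.2 ± 16.9, Plod1 at 69.9 ± 20.8, Adamts2 at 64.6 ± 41.2, Plod3 at 55.8 ± 12.7 and Bmp1 at 52.0 ± 14.5, with P4ha3 last at 4.49 ± 1.62. Of the neighbours, only P4ha1 and Serpinh1 and the last pair were apart by more than 1 SD of each mean. Exonic length here is the union over annotated transcripts, so a gene with many isoforms is set somewhat too low.

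In PBS and in bleomycin skin a single library was highest for most of the genes, and in celastrol skin none was. PBS 2 was above PBS 3 in 8 of the 10, with Plod2 and P4ha3 as the exceptions. Bleomycin 2 had the highest bleomycin value in 8 of 10, all but Plod2 and P4ha1. Celastrol 2, 3 and 5 were highest in 4, 4 and 2 of the 10 genes. The genes together took 0.0728% and 0.0432% of all values in the PBS libraries, 0.0304%, 0.0193% and 0.0213% in the bleomycin libraries, and 0.0198%, 0.0215% and 0.0165% in the celastrol libraries. The order within PBS and within bleomycin is the order of the fibrillar collagens, which took 3.02% and 1.15% in PBS, and 0.371%, 0.0832% and 0.0654% in Bleomycin 2, 3 and 4, apart from the last pair. In PBS and bleomycin skin the summed epidermal markers ran in the same order as the collagens. They were at 2.34% and 1.34% in PBS 2 and 3 and at 2.25%, 1.55% and 1.14% in Bleomycin 2, 3 and 4. In Celastrol 2, 3 and 5 they were at 1.71%, 1.285% and 1.61%, beside 0.0760%, 0.170% and 0.0705% for the collagens. Celastrol 3 was thus lowest for the epidermal markers and highest for the collagens. The part of the epidermal markers in the result was not tested.

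Likeness between profiles was measured as the root mean square difference (RMS) of log2 values over the 8 libraries, after each gene was centred on its own mean. Within the set the smallest differences were between Plod1 and P4ha1 (0.49), P4ha1 and P4ha2 (0.491), and Serpinh1 and Adamts2 (0.491). The RMS is not scaled for spread, so P4ha1, with an SD of 0.159, lies near any gene that varied little. The SD was 0.583 for Plod1 and 0.536 for P4ha2, not far above their differences from P4ha1. Those values therefore do not show that either gene shares a pattern with P4ha1. The most distant pair was P4ha3 with Serpinh1 (2.08), followed by P4ha3 with Adamts2 (2.00) and Plod2 with Serpinh1 (1.96). Outside the set, each gene was compared with 13381 genes with a mean value of at least 50 (symbols of the Gm and Rik kinds left out), so that a close match can be found for almost any profile. Serpinh1 was closest to Loxl4, a lysyl oxidase-like gene (0.413), and to Sparc, which encodes a collagen-binding matricellular protein (0.419). Adamts2 was closest to Serpinf1 (0.247) and Loxl4 (0.26), and Pcolce to Olfml2b (0.332) and Pi16 (0.359), the latter a fibroblast marker. Bmp1 was closest to Farp1 (0.148) and Sh3pxd2b (0.173), and P4ha2 to BC028471 (0.177) and the microfibril gene Mfap5 (0.185). Plod2 was closest to Vcam1, an adhesion molecule of activated endothelium (0.177), and Apol7a (0.195). Plod1 had Gpnmb (0.18) and Cmtm3 (0.182) as its nearest profiles, Plod3 had Prkd2 (0.135) and Grina (0.171), P4ha1 had Ttll4 (0.0666) and Bicd1 (0.0697), and P4ha3 had Anks1b (0.326) and Cacnb4 (0.34).

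Fibrillar collagens are the main substrates of these enzymes. Of 9 fibrillar collagen genes 3 fell and 6 did not pass in bleomycin against PBS, and 5 fell and 4 did not pass in celastrol against PBS, with median changes of -1.91 and -2.06. None passed in either comparison without PBS 2, PBS 3 or Celastrol 5, and none in celastrol against PBS without Celastrol 2. In bleomycin against PBS none passed without Bleomycin 3 or Bleomycin 4, 1 did without Celastrol 2 and 5 did without Bleomycin 2. The Serpinh1 value was 1.99% and 3.50% of the Col1a1 value in the PBS libraries. It was 5.29%, 24.2% and 27.0% of it in the bleomycin libraries and 13.9%, 10.7% and 31.9% in the celastrol libraries. All 6 were above both PBS libraries, by a log2 difference of 2.52 for bleomycin (two-sided exact permutation p = 0.2, adjusted p = 0.343) and 2.67 for celastrol (exact permutation p = 0.1, adjusted p = 0.3). Celastrol and bleomycin differed by 0.16 (exact permutation p = 0.8, adjusted p = 0.873). These ratios are of values not scaled by length, so only their differences between libraries can be read.

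**Figure D3:**
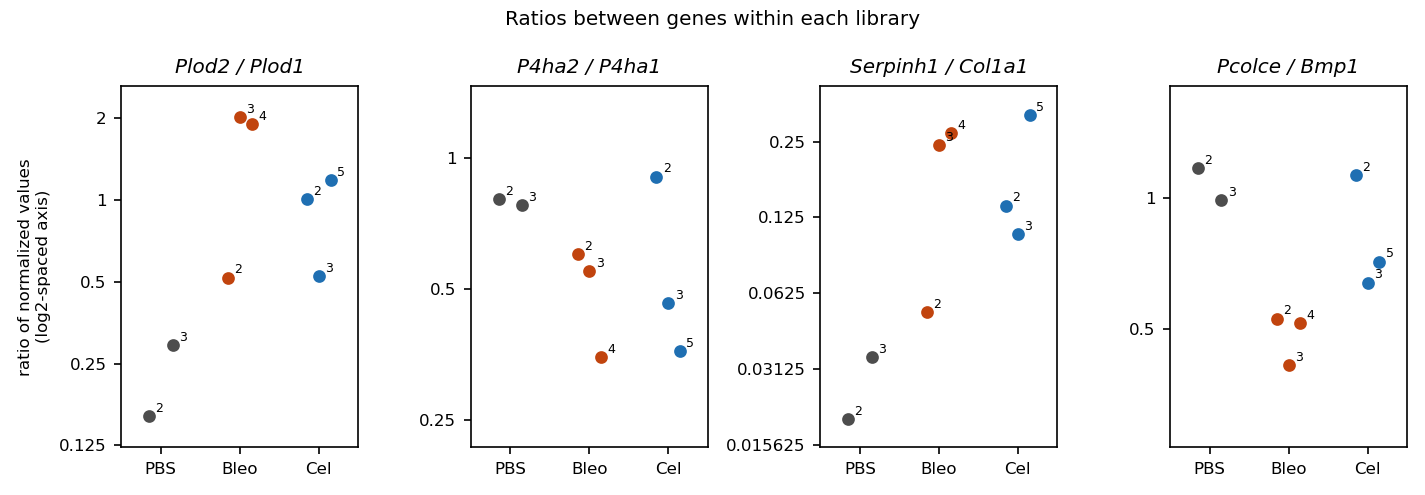
Ratio of the normalized values of 2 genes within each library (vertical axes, log2-spaced, a range of their own per panel), with points labelled by replicate number. The ratios of Plod2 to Plod1 and of Serpinh1 to Col1a1 are above both PBS libraries in all 6 bleomycin and celastrol libraries, the ratio of P4ha2 to P4ha1 is below both PBS libraries in the bleomycin libraries, and the ratio of Pcolce to Bmp1 is lowest in the 3 bleomycin libraries.

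Other genes of procollagen modification, folding, export and processing were taken from a list of 24, of which 22 were measured. In bleomycin against PBS 0 of 22 passed (7 had an unadjusted p under 0.05, 1 higher and 6 lower; median -0.33). In celastrol against PBS 1 rose, 2 fell and 19 did not pass (median -0.74). In that comparison 1 was higher and 7 lower at an unadjusted p under 0.05, where 6.13% and 5.91% of all genes tested were so. In celastrol against bleomycin 0 passed and 1 had an unadjusted p under 0.05 (median 0.04). Pcolce2, the close relative of Pcolce, fell in celastrol against PBS, with a change of -2.60 ± 0.53 (adjusted p = 0.0439), from 2048 and 2000 in PBS to 271, 719 and 189. Sec24d, a component of the COPII coat that carries procollagen out of the endoplasmic reticulum, fell, with a change of -1.27 ± 0.25 (adjusted p = 0.0367). Tmem38b, a potassium channel of the endoplasmic reticulum whose loss impairs collagen assembly, rose by 1.68 ± 0.26 (adjusted p = 0.0144), from 278 and 263 to 653, 955 and 1051. The bleomycin changes of these genes were -2.40, -1.25 and 1.29 (adjusted p = 0.0866, 0.0547 and 0.0617). Without Celastrol 2, Tmem38b rose in celastrol against PBS (1.89, adjusted p = 0.0183), while Pcolce2 (-2.45, adjusted p = 0.129) and Sec24d (-1.31, adjusted p = 0.087) did not pass. Without PBS 2, PBS 3 or Celastrol 5 none of these genes passed (adjusted p = 0.0731 to 0.235), and without Bleomycin 3 or Bleomycin 4 only Tmem38b did. In bleomycin against PBS 2 of the 22 passed without Bleomycin 2, and 1 without Celastrol 2 or Celastrol 3.

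Relatives of the processing and folding genes covered a wide range. The N-proteinase relatives of Adamts2 were at changes of -3.94 ± 1.46 (Adamts3, listed at 0 in Celastrol 2 and 3) and -1.88 ± 0.60 (Adamts14) in celastrol against PBS, and the Bmp1 relative Tll1 was at -0.49 ± 0.33, none of which passed (adjusted p = 0.296, 0.213 and 0.615). In the prolyl 3-hydroxylase complex, P3h1 and Crtap were at -1.32 and -0.99 in celastrol against PBS and at -1.56 and -1.39 in bleomycin against PBS, while the other component, Ppib, was at -0.15 and -0.33. Fkbp10, a prolyl isomerase that works with HSP47 and Plod2, was at -1.78 and -1.95. None of these changes passed, and the Fkbp10 libraries overlapped between bleomycin and PBS.

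**Figure D4:**
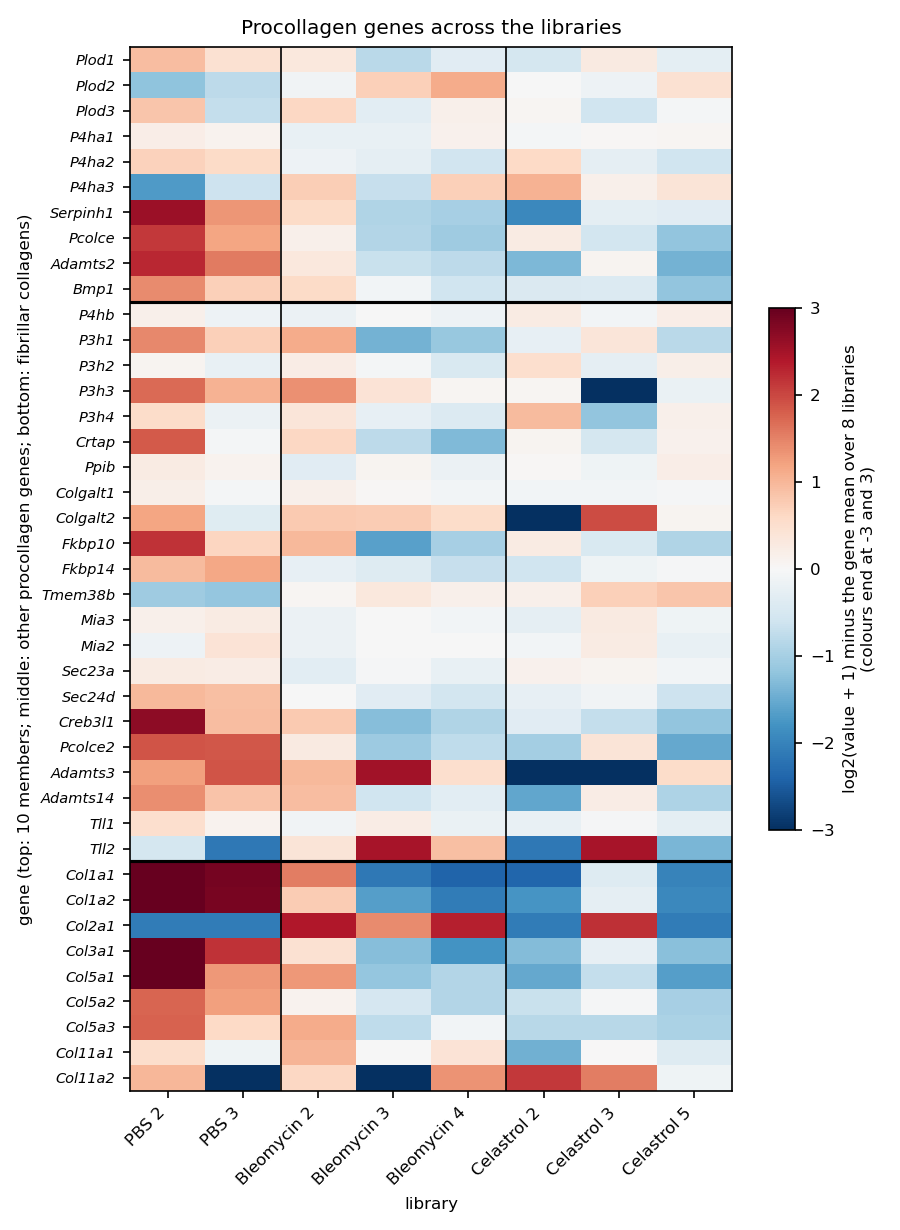
Log2 of the value plus 1 minus the mean of the gene over the 8 libraries (colour, ending at -3 and 3), with libraries as columns and genes as rows (the 10 genes on top, 22 other procollagen genes in the middle, 9 fibrillar collagens below). Serpinh1, Pcolce, Adamts2 and Bmp1 share the high PBS columns of Col1a1, Col1a2 and Col3a1, whereas Plod2 is low in PBS and P4ha1, P4hb, Colgalt1 and P3h2 stay near the middle of the scale.

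Lists tied to stress responses that are known to act on some of these genes were counted as well. Of 21 hypoxia response genes measured 0 passed in bleomycin against PBS (median 0.40). At an unadjusted p under 0.05 there were 3, all higher, where 3.62% of all genes tested were higher. In celastrol against PBS 1 rose (median 0.43), the glycolytic enzyme gene Ldha, by 1.08 ± 0.22 (adjusted p = 0.0434). In that comparison 8 of the 21 had an unadjusted p under 0.05, all higher, where 6.13% of all genes tested were higher. Ldha did not pass without Celastrol 2 (1.06, adjusted p = 0.126) or without any of PBS 2, PBS 3, Bleomycin 3, Bleomycin 4 and Celastrol 5 (adjusted p = 0.0675 to 0.307), and 3 genes of the list passed without Celastrol 3. Skeletal muscle, whose markers are given below, also expresses Ldha, and its part in this rise was not tested. Of 12 heat shock factor targets 0 passed in either comparison (1 and 3 with an unadjusted p under 0.05, medians 0.03 and 0.28). Serpinh1, itself a heat shock protein gene, lay at -2.39 and -2.81, and a link to this list was not tested. Of 14 genes of endoplasmic reticulum stress 0 passed (1 and 2 with an unadjusted p under 0.05; medians 0.04 and 0.10). In celastrol against bleomycin 0 genes of these lists passed, with 1, 0 and 0 at an unadjusted p under 0.05.

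Markers of some cell types, chiefly dermal fibroblasts and skeletal muscle, also differed from PBS, and their part in these results was not tested. Of 10 dermal fibroblast markers 5 fell and 5 did not pass in bleomycin against PBS and likewise in celastrol against PBS, and 0 passed in celastrol against bleomycin (0 at an unadjusted p under 0.05). Their summed level was 0.418% to 0.448% of all values in PBS, 0.0934% to 0.160% in bleomycin and 0.0787% to 0.189% in celastrol libraries, and none was at 0 in any library. Bleomycin 2 and Celastrol 3, which were highest in their groups for Serpinh1 and Adamts2, were also highest for the summed fibroblast markers. In PBS skin the library with more Serpinh1 and Adamts2, PBS 2, had the lower sum. Bleomycin 4 had a higher sum than Bleomycin 3 (0.117% and 0.0934%) but less Serpinh1 (334 and 358) and Adamts2 (572 and 625). Celastrol 2 had a higher sum than Celastrol 5 (0.119% and 0.0787%) and more Adamts2 (389 and 373), but less Serpinh1 (176 and 529). Fewer fibroblasts and less RNA per fibroblast cannot be told apart in these bulk samples. Without Celastrol 2 the fibroblast markers that fell were 2 in bleomycin and 1 in celastrol against PBS, and without PBS 2 or PBS 3 none fell in either comparison. Without Bleomycin 3 none fell in bleomycin and 3 did in celastrol against PBS, without Bleomycin 4 the counts were 0 and 2, and without Celastrol 5 they were 6 and 0. Of 10 skeletal muscle markers 1 rose in bleomycin against PBS and 6 rose in celastrol against PBS, and none was at 0. In celastrol against bleomycin 0 of the 10 passed (median 1.05). In that comparison 8 were higher at an unadjusted p under 0.05 and 0 lower, where 1.38% and 2.49% of all genes tested were so. The summed level of the muscle markers was 2.23% in both PBS libraries, 3.15% to 4.40% in bleomycin and 4.82% to 7.04% in celastrol libraries. In celastrol against PBS 3 of these markers rose without Celastrol 2 or Bleomycin 4, 1 without PBS 2 and 0 without PBS 3 or Celastrol 5. For bleomycin against PBS, 1 muscle marker rose without Celastrol 2 or Celastrol 3, and 0 rose when any other library was left out. Of 10 macrophage markers 1 rose in each comparison with PBS, with summed levels of 0.0850% to 0.0900% in PBS, 0.0855% to 0.118% in bleomycin and 0.0667% to 0.108% in celastrol libraries. At an unadjusted p under 0.05, 4 were higher and 0 lower in bleomycin, and 4 higher and 1 lower in celastrol against PBS. The bleomycin call was lost when Bleomycin 3, Bleomycin 4 or any celastrol library was left out. The celastrol call was lost without Celastrol 2 or Celastrol 5. Of 8 endothelial markers 0 passed in bleomycin against PBS (2 at an unadjusted p under 0.05) and 1 fell in celastrol against PBS. Of 8 smooth muscle and pericyte markers 0 passed (3 at an unadjusted p under 0.05) and 2 rose. Of 8 adipocyte markers 0 passed in either comparison, also without adjustment. Without Celastrol 2, 0 macrophage and 0 endothelial markers and 1 smooth muscle and pericyte marker passed in celastrol against PBS.

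The calls for these genes rested on few libraries. In bleomycin against PBS 4 of the 10 passed without Bleomycin 2, 1 higher and 3 lower. Of all genes tested, 130 then passed as higher and 99 as lower. In celastrol against PBS 4 of 10 fell without that library, where 169 of all genes tested fell. In that comparison 0 of 10 passed without PBS 2, PBS 3, Celastrol 2 or Celastrol 5. With library weights 6 passed in bleomycin against PBS, where 384 of all genes tested passed as higher and 327 as lower. Adamts2, Serpinh1, Pcolce, Bmp1 and P4ha2 fell and Plod2 rose (adjusted p from 0.00346 to 0.0402). Without these changes to the fit, 157 of all genes tested passed in bleomycin against PBS (limma, 105 higher, 52 lower). In celastrol against PBS 317 passed (191 higher, 126 lower). In celastrol against bleomycin 0 passed (898 at an unadjusted p under 0.05). For celastrol against PBS the split was 111 higher and 151 lower with upper-quartile scaling and 139 higher and 138 lower with equal column sums.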

How the data were processed

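RNA from 8 skin libraries was sequenced. Total RNA was extracted with Trizol and the library kit was VAHTS Total RNA-seq, per the labels. The deposited values are a signal on a linear scale that is never negative: per the labels and the name of the table, the authors divided estimated counts by size factors of DESeq2 (poscounts). Partek 10.0.22, STAR 2.7.3a and mm10 also stand in the submitters' processing notes, with no roles. Counter, annotation and strand use are not given in the sources used here. In 55.3% to 67.0% of genes below 1000 reads the value came within 0.03 reads of a whole number, so raw counts were not recovered and no count model was used. Depth was estimated from what 1 read is worth in each library, and 2 or 3 libraries per group limit the precision.

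Changes were fitted in limma 3.58.1 (R 4.3.3; lmFit, then eBayes with a mean-variance trend) to log2(value + 1). The fit held all 8 libraries and no covariate. A gene entered it with 10 or more in 2 or more libraries, which kept 23185 and removed 1427. The p-values are two-sided and were adjusted by the Benjamini-Hochberg method over the genes kept. On this scale the change of low genes is understated. The procedure was tested on simulated data.

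The genes and lists were chosen with earlier results of these data known. By rule the text names all 10 genes, the genes of each list that passed, single-gene partners and the 2 nearest profiles of each gene. Overlapping genes and other list genes were chosen after their values were seen. Exon lengths come from GENCODE M21, which matched 23752 genes, and promoters from RefSeq (GRCm38.p6). Alternatives changed the pseudocount, filter, scaling, library weights, trend, replicate block and libraries used. The labels name no batch.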

Additional observations from a re-analysis of the deposited data

How the results depend on the processing

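Among the alternative values of the 30 log2 changes, 537 kept their direction and side of the threshold, 28 came to pass, 7 (all Adamts2 in celastrol against PBS, adjusted p from 0.00701 to 0.163 over all alternatives) no longer passed and 25 reversed. Where no cause is named below, the cause was not tested.

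The number of the 10 genes that passed in bleomycin against PBS was 0, and it was 1 with a pseudocount of 5, 2 with quantile normalization and 6 with library weights, and 0 to 4 when a library was left out. In celastrol against PBS it was 1, and it was 4 with a pseudocount of 5, upper-quartile scaling or quantile normalization, 2 with no filter or with library weights, 0 without the trend, and 0 to 4 when a library was left out. With a pseudocount of 5, 116 of all genes passed as higher and 68 as lower in bleomycin against PBS, and 211 and 155 in celastrol against PBS. With quantile normalization these counts were 145 and 78, and 217 and 155. In celastrol against PBS they were 111 and 151 with upper-quartile scaling, 187 and 129 with no filter, and 231 and 167 with library weights. Over all genes, 157 passed in bleomycin against PBS, and 711 with library weights, 7 without the trend, 46 with only the groups compared and 16 (without Bleomycin 4) to 229 (without Bleomycin 2) when a library was left out. In celastrol against PBS 317 passed, and 19 without the trend, 159 with only the groups compared and 38 (without PBS 3) to 418 (without Bleomycin 2) when a library was left out. Celastrol against bleomycin had 0, with 2 without the trend and 0 to 1 when a library was left out. Without the shallow libraries Bleomycin 3, Celastrol 2 and Celastrol 3 together, an alternative chosen after seeing the data that leaves fewer samples, 0 genes passed in bleomycin against PBS and 4 in celastrol against PBS, with 0 of the 10 genes in the latter.

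With the replicate number as a block, 17 genes passed in bleomycin against PBS and 41 in celastrol against PBS, with 0 of the 10 genes in the latter (Adamts2 -2.55, adjusted p = 0.163). Deviations of libraries with the same number correlated at -0.00485 to 0.203, and those of libraries with different numbers at -0.203 to 0.123. The 2 PBS libraries deviate from their mean by equal and opposite amounts, so this check cannot settle whether the numbers pair the libraries.

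In celastrol against bleomycin, where every interval included 0, the following directions reversed. With upper-quartile scaling Plod1 was at -0.0432, P4ha1 at -0.0106 and Pcolce at -0.0399, and with equal column sums they were at -0.035, -0.00234 and -0.0315. These scalings moved the median of all genes in celastrol against PBS from -0.07 to -0.19 and -0.17. Library weights gave -0.0284 for P4ha1, -0.14 for P4ha3 and 0.20 for Serpinh1. Without the 3 shallow libraries Plod1 was at -0.30, P4ha2 at -0.23, P4ha3 at -0.33 and Pcolce at -0.73. When a library was left out, Plod1 ranged from -0.18 to 0.39, P4ha2 from -0.0916 to 0.50, P4ha3 from -0.19 to 0.52, Serpinh1 from -0.70 to 0.12 and Pcolce from -0.28 to 0.46. Against PBS, Plod3 ranged from -0.67 to 0.87 in bleomycin and from -1.03 to 0.51 in celastrol.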
